A study of Arabidopsis thaliana with 4 samples.

Results

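Pectin methylesterases (PMEs) and pectin methylesterase inhibitors (PMEIs) were taken as all genes whose symbol in the deposited expression table begins with PME or ATPME. This gave 67 of the 32538 genes in the table, of which 56 are described there as methylesterases and 11 as inhibitors. Messenger RNA had been sequenced from hypocotyls, the seedling stem below the cotyledons, of Arabidopsis thaliana seedlings that were left to germinate for 24 hours and then grown in darkness for 5 days at 22 °C. The mutant shr-2, which carries an allele of the transcription factor gene SHORT-ROOT (SHR), gave 2 libraries, and the wild type Col-0 gave 2 libraries. Both genotypes have the ecotype Col-0 in the labels, no treatment is named, and nothing in the labels says how many seedlings were pooled for a library. The hypocotyl was taken whole, so that fewer cells of a type and less RNA per cell cannot be told apart.

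Pectin is laid down in the plant cell wall with most of its homogalacturonan in a methyl-esterified form. PMEs remove these methyl groups in the wall, which leaves charged stretches that can be bridged by calcium or cut by pectin-degrading enzymes, and PMEIs bind PMEs and block them. Many PMEs are made with a preceding region that resembles an inhibitor and is cleaved off before the enzyme reaches the wall, and in the hypocotyl of dark-grown seedlings the degree of methyl-esterification is known to bear on cell elongation.

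The values were FPKM, fragment counts per unit of transcript length and of mapped fragments, as the authors deposited them. Depth is unknown because no counts were used, and summed FPKM lay between 718046 and 757234 in the shr-2 libraries and between 713763 and 723199 in the Col-0 libraries. SHR itself had 2.57 and 3.45 FPKM in shr-2 and 28.4 and 28.9 FPKM in Col-0, a log2 fold change of -2.90 (SE 0.14, limma adjusted p = 0.00049). The titles of the mutant libraries name shr-2, but their genotype field reads as an SCL28 overexpressor. SCL28 had 5.81 and 5.57 FPKM in shr-2 and 5.00 and 5.24 FPKM in Col-0 (limma adjusted p = 0.412). The tissue field of all 4 libraries reads root tip, whereas the growth protocol names hypocotyls, and 7 markers of root tip and root hair had at most 0.345 FPKM in any library. The endodermis, the cell layer around the vascular tissue, is the tissue that SHR and SCARECROW (SCR) specify. All 8 markers of this layer were lower in shr-2, where 13.7% of all genes tested were. Their summed levels were 20.1 to 22.5 FPKM in shr-2 and 505 to 622 FPKM in Col-0. MYB36 and CASP1 to CASP5 reached the mean of 1 FPKM needed for testing only through Col-0. Their separation follows in part from that filter. In the authors' deposited table CASP1 and CASP4 were not called (q = 0.285 and 0.182), and the others were. SCR had 6.91 and 8.84 FPKM in shr-2 and 23.3 and 24.8 FPKM in Col-0 (log2 fold change -1.51, limma adjusted p = 0.00248). The endodermal markers move with every difference given below, and their part in those differences was not tested.

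The family was expressed very unevenly. The table lists 15 of the 67 at 0 in each library, 14 PMEs and 1 PMEI, and 33 stayed under 1 FPKM in every library. The genes at 0 included VGD1 and VGDH1, which the table calls PME5 and PME4 and which act in the pollen tube, and PME24, which the RefSeq annotation names for its expression in root hairs (RHS12). A gene was tested when its 4 libraries averaged 1 FPKM or more, which left 32 members, 24 PMEs and 8 PMEIs. Of the highest levels, PMEI9 reached 336 FPKM in shr-2 and PME16 reached 298 FPKM in Col-0, so that both kinds of gene contributed to the abundant transcripts of this organ.

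**Figure D1:**
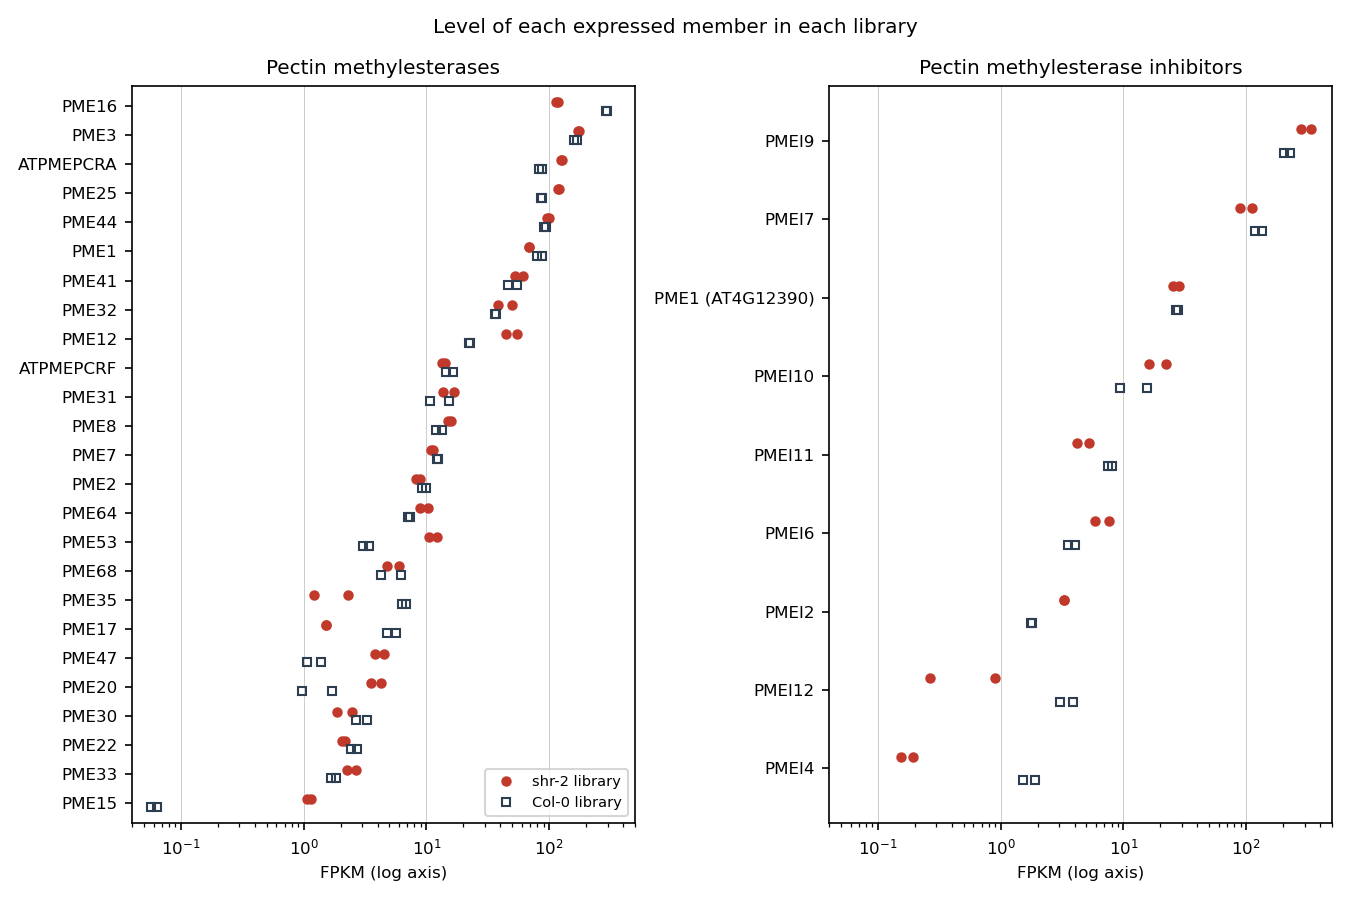
FPKM on a log axis of every PME (left) and PMEI (right) with at least 1 FPKM in some library. Each red circle is a shr-2 library, each open square a Col-0 library, and genes run from high to low mean. The symbols of PME16, PME53, PME17, PME12, PME35 and PMEI12 lie far apart between genotypes, while those of PME3 and PME44 lie close together.

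The genes were compared between genotypes with limma on log2(FPKM + 1), with Benjamini-Hochberg adjustment over all 19920 genes tested and a threshold of 0.05 on the adjusted p. Of the 32 tested members, 14 passed, which is 43.8%, whereas 27.6% of all genes tested passed. Of these, 9 were higher in shr-2, where 13.9% of all genes were, and 5 were lower in shr-2, where 13.7% of all genes were. A log2 fold change of at least 1 in size in a called gene was found for 8 of the 32, where 9.12% of all genes tested had one. The shr-2 and Col-0 values did not overlap for 28 of 32 members, against 66.2% of all genes. The median log2 fold change was 0.12 over the 32 members and 0.01 over all genes tested. In the authors' deposited table, 16 of the 37 members they tested were called (10 with more transcript in shr-2 and 6 with less), against 24.8% of all genes they tested, and 14 of these were the members that passed here. With 1 library left out, calls were fewer among members and among all genes alike. Without shr-2 replicate 1, 10 members passed (31.2%, against 19.3% of all genes), and without shr-2 replicate 2, 8 passed (25%, against 17.2%). Without Col-0 replicate 1, 5 passed (15.6%, against 10.3%), and without Col-0 replicate 2, 6 passed (18.8%, against 11.4%). The genes PME16, PME53, PME17, PME12 and PME47 passed whichever library was left out.

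**Figure D2:**
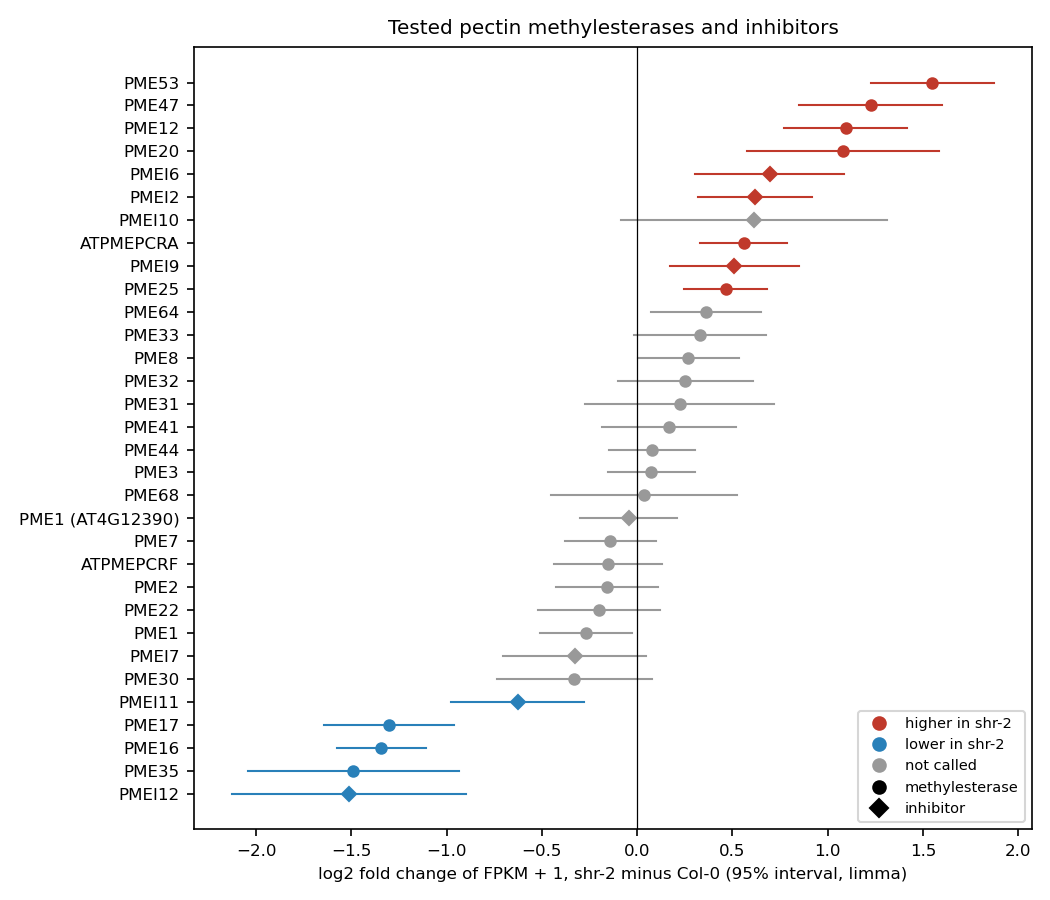
Log2 fold change of FPKM + 1, shr-2 minus Col-0, of the 32 tested members with the 95% interval from limma. Circles are PMEs and diamonds PMEIs, and colour gives the call at an adjusted p under 0.05. The 5 members lower in shr-2 lie between -1.51 and -0.63 and the 9 higher in shr-2 between 0.46 and 1.55.

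Among the PMEs, 6 were higher in shr-2, 3 were lower and 15 did not pass (37.5% passed, against 27.6% of all genes tested). Among the PMEs lower in shr-2, the largest difference in FPKM was in PME16 (AT2G43050, TAIR10.1 chromosome 2, 17902370 to 17904443, plus strand), a PME with an inhibitor-like region that RefSeq lists as ATPMEPCRD. It had 119 and 113 FPKM in shr-2 and 293 and 298 FPKM in Col-0. Replicates lay close together and the genotypes far apart, and the mean was 2.55-fold lower in shr-2 (log2 fold change -1.34, SE 0.09, limma adjusted p = 0.00124). In Col-0 PME16 was the most abundant PME, and in both shr-2 libraries it ranked below PME3 and ATPMEPCRA.

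The other PMEs that were lower in shr-2 were weakly expressed. PME17 (AT2G45220, chromosome 2, 18644061 to 18646606, minus strand), which is induced by fungal infection and is processed by a subtilase, had 1.51 and 1.52 FPKM in shr-2 and 4.74 and 5.70 FPKM in Col-0 (log2 fold change -1.30, SE 0.13, limma adjusted p = 0.00332). PME35 (AT3G59010, chromosome 3, 21802770 to 21805335, minus strand), which RefSeq lists as PME61 and which is known to demethylesterify pectin in the fibres of the inflorescence stem, had 1.21 and 2.32 FPKM in shr-2 and 6.88 and 6.34 FPKM in Col-0. In neither gene did a shr-2 library reach the level of a Col-0 library. PME35 changed by -1.49 on the log2 scale (SE 0.22, limma adjusted p = 0.00855), and this call was lost without either Col-0 replicate, with an adjusted p of up to 0.0733.

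Among the PMEs higher in shr-2, PME53 (AT5G19730, chromosome 5, 6670275 to 6673625, plus strand), which lacks the inhibitor-like region, had the largest log2 fold change. It had 12.3 and 10.5 FPKM in shr-2 and 3.02 and 3.43 FPKM in Col-0, and both shr-2 libraries lay far above both Col-0 libraries (log2 fold change 1.55, SE 0.13, limma adjusted p = 0.00193). PME12 (AT2G26440, chromosome 2, 11247160 to 11249620, plus strand) had 54.5 and 44.3 FPKM in shr-2 and 22.2 and 22.8 FPKM in Col-0, again without overlap (log2 fold change 1.09, SE 0.12, limma adjusted p = 0.00438). Among the genes that were higher by at least 1 on the log2 scale it was the most abundant. PME47 (AT5G04970, chromosome 5, 1464079 to 1467161, minus strand) had 3.85 and 4.52 FPKM in shr-2 and 1.06 and 1.38 FPKM in Col-0 (log2 fold change 1.22, SE 0.15, limma adjusted p = 0.00499). PME20 (AT2G47550, chromosome 2, 19508929 to 19511792, plus strand) had 3.55 and 4.25 FPKM in shr-2 and 0.973 and 1.71 FPKM in Col-0 (log2 fold change 1.08, SE 0.20, limma adjusted p = 0.0167). PME47 and PME20 were thus low in both genotypes, with every shr-2 library above every Col-0 library. The call of PME20 was lost without shr-2 replicate 2 or Col-0 replicate 1, with an adjusted p of up to 0.066, and this gene overlaps ATL64 and AT2G09925 on the opposite strand.

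Of the abundant PMEs, 2 were higher in shr-2 by a smaller amount. ATPMEPCRA (AT1G11580, chromosome 1, 3888610 to 3890824, plus strand) had 125 and 127 FPKM in shr-2 and 82.6 and 87.5 FPKM in Col-0 (log2 fold change 0.56, SE 0.09, limma adjusted p = 0.0111). PME25 (AT3G10720, chromosome 3, 3354406 to 3357754, minus strand) had 119 and 121 FPKM in shr-2 and 85.7 and 87.4 FPKM in Col-0 (log2 fold change 0.46, SE 0.08, limma adjusted p = 0.0168). Both had narrow replicates and no overlap between genotypes, but their calls rested on all 4 libraries: ATPMEPCRA passed only when shr-2 replicate 1 was left out, with an adjusted p of up to 0.086 otherwise, and PME25 did not pass whichever library was left out, at 0.0694 to 0.106. PME3 (AT3G14310, chromosome 3, 4771833 to 4775258, minus strand), a PME with a known role in adventitious rooting, had 171 and 174 FPKM in shr-2 and 167 and 160.3 FPKM in Col-0. All 4 values were close, and the difference did not pass (log2 fold change 0.08, 95% interval -0.15 to 0.30, limma adjusted p = 0.577). The other 14 PMEs that did not pass ranged in mean level from PME33, at 2.25 and 2.68 FPKM in shr-2 and 1.67 and 1.83 FPKM in Col-0, to PME44, at 96.4 and 99.4 FPKM in shr-2 and 90.54 and 94.98 FPKM in Col-0. They also included PME68, which RefSeq lists as PME5 and which is known for its part in organ positioning at the shoot apex, with a limma adjusted p of 0.909.

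Architecture was read from the deposited description or from the RefSeq product name. Genes of both directions were found among the PMEs with the inhibitor-like region. Of 15 tested among the 34 PMEs with this region, 4 were higher in shr-2 and 2 lower, against 13.9% and 13.7% of all genes. Of the 14 without it, 3 were tested and 1, PME53, was higher. For 8 PMEs neither source states the architecture, and of the 6 tested, ATPMEPCRA was higher and PME35 lower. ATPMEPCRA and PME35 have coding lengths of 1737 and 1590 bases. The coding lengths were 1425 to 2907 bases with the region, 867 to 1224 bases without it and 522 to 939 bases in the PMEIs, which do not carry the catalytic part.

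Among the PMEIs, 3 were higher in shr-2, 2 were lower and 3 did not pass (62.5% passed, against 27.6% of all genes tested). PMEI9 (AT1G62770, chromosome 1, 23245835 to 23246949, minus strand), an inhibitor with a known role in root growth, was the most abundant of all 67 genes on average. It had 282 and 336 FPKM in shr-2 and 204 and 229 FPKM in Col-0. Every shr-2 library was above every Col-0 library, but the replicates were spread (log2 fold change 0.51, SE 0.13, limma adjusted p = 0.0441). No fit on 3 libraries kept this call, with adjusted p of 0.0506 to 0.229, and it was also lost without the filter on the mean, at 0.0676.

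PMEI2 (AT3G17220, chromosome 3, 5883328 to 5884191, minus strand), among the first inhibitors characterised in Arabidopsis and best known from pollen, had 3.27 and 3.30 FPKM in shr-2 and 1.797 and 1.783 FPKM in Col-0 (log2 fold change 0.62, SE 0.12, limma adjusted p = 0.0184). Its replicates were nearly equal, and no fit on 3 libraries kept the call, with adjusted p of 0.0503 to 0.0817. PMEI6, known from seed coat mucilage and named here after its values were seen, had 7.62 and 5.91 FPKM in shr-2 and 3.51 and 4.04 FPKM in Col-0 (log2 fold change 0.69, limma adjusted p = 0.0281). Its genotypes did not overlap, and the call held only when shr-2 replicate 2 was the library left out, with an adjusted p of up to 0.151 otherwise. It was also lost without the filter on the mean, at 0.0513.

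PMEI10, PMEI11 and PMEI12 are known from Arabidopsis as inhibitors induced in immunity to a fungus, and the first of them did not pass while the others were lower in shr-2. PMEI11 (AT3G47380, chromosome 3, 17457614 to 17458599, plus strand) had 5.27 and 4.16 FPKM in shr-2 and 8.04 and 7.52 FPKM in Col-0 (log2 fold change -0.63, SE 0.14, limma adjusted p = 0.0274). PMEI12 (AT5G46960, chromosome 5, 19062146 to 19062814, minus strand) had 0.267 and 0.907 FPKM in shr-2 and 3.85 and 3.06 FPKM in Col-0 (log2 fold change -1.51, SE 0.24, limma adjusted p = 0.0109). Neither gene overlapped between genotypes. PMEI12 met the filter on the mean only through Col-0, so its separation follows in part from the filter. The call of PMEI11 held only without shr-2 replicate 1, with an adjusted p of up to 0.149 otherwise, and that of PMEI12 was lost without either Col-0 replicate, at up to 0.0779. With a pseudocount of 0.1 in place of 1 FPKM the change of PMEI12 was -2.54. PMEI12 is 93.48% identical to AT5G46950, so that the reads of this pair are uncertain. PMEI10, named after its values were seen, had 16.2 and 22.4 FPKM in shr-2 and 9.33 and 15.6 FPKM in Col-0. It did not pass in limma (adjusted p = 0.161) and was called higher in the authors' deposited table (q = 0.0111).

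PMEI7 (AT4G25260, chromosome 4, 12935710 to 12937236, minus strand), an inhibitor that is known to act on PME3, was the next most abundant PMEI. It had 112 and 88.8 FPKM in shr-2 and 134 and 118 FPKM in Col-0. Both shr-2 values lay under both Col-0 values, but the difference did not pass (log2 fold change -0.33, 95% interval -0.70 to 0.05, limma adjusted p = 0.164). It overlaps AT4G25270 on the same strand, where the assignment of reads is uncertain.

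The filter on the mean left out a pair of genes that reached 1 FPKM in some library. PMEI4 (AT4G25250, chromosome 4, 12934562 to 12935470, plus strand), whose loss is known to alter the timing of growth acceleration in dark-grown hypocotyls, had 0.153 and 0.192 FPKM in shr-2 and 1.90 and 1.53 FPKM in Col-0. PME15 (AT2G36710, chromosome 2, 15389466 to 15391257, minus strand) had 1.06 and 1.15 FPKM in shr-2 and 0.0567 and 0.0641 FPKM in Col-0. A gene with so low a mean reaches 1 FPKM only through the genotype where it is high, so the separation of these genes follows in part from how they were picked. With no filter on the mean, PMEI4 was lower in shr-2 (log2 fold change -1.21, limma adjusted p = 0.00589) and PME15 higher (log2 fold change 0.99, limma adjusted p = 0.0044). In the authors' deposited table PMEI4 was called (q = 0.00813) and PME15 was not (q = 0.0981).

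Because FPKM is scaled to length, the levels can be summed over the family. The 56 PMEs summed to 952 and 974 FPKM in shr-2 and 1009 and 1028 FPKM in Col-0. The 11 PMEIs summed to 455 and 487 FPKM in shr-2 and 393 and 409 FPKM in Col-0. The PME sum divided by the PMEI sum was 2.09 and 2.00 in shr-2 and 2.57 and 2.51 in Col-0. In these sums the shr-2 libraries were below the Col-0 libraries for PMEs and in the ratio, and above them for PMEIs, and no test was made on them. PME16 made up 12.5% and 11.6% of the PME sum in shr-2 and 29.0% and 28.9% in Col-0. Of the PMEI sum, PMEI9 made up 61.9% and 69.0% in shr-2 and 51.9% and 56.0% in Col-0. The direction of each sum rested on this leading gene. Without PME16, the summed PMEs were higher in both shr-2 libraries than in both Col-0 libraries. Without PMEI9, the summed PMEIs were lower in both shr-2 libraries than in both Col-0 libraries. These sums are of transcripts and hold no measure of enzyme activity or of pectin itself.

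**Figure D3:**
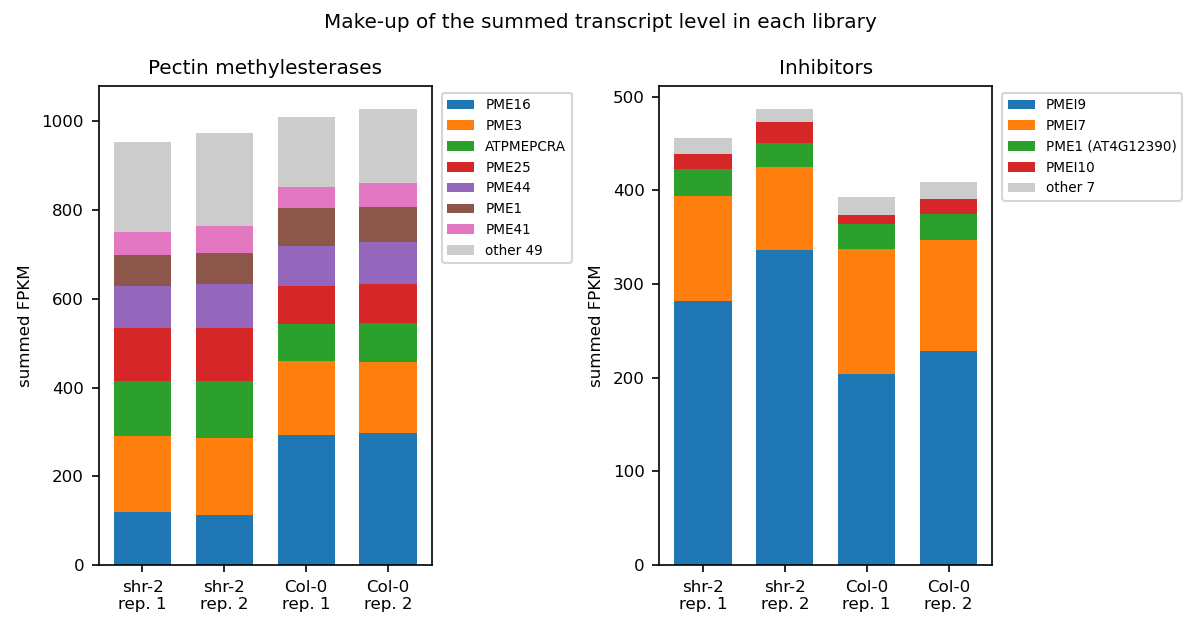
Summed FPKM of all 56 PMEs (left) and all 11 PMEIs (right) in each library, split by the most abundant genes, with the rest in grey. The PME16 segment is 119 and 113 FPKM in the shr-2 libraries and 293 and 298 FPKM in the Col-0 libraries, while the totals of the PMEs lie between 952 and 1028 FPKM.

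Closely related PMEs were next compared. PME16 and PME35 are each other's closest member, with transcripts 74.07% identical over 72.3% of their length, and both were lower in shr-2 (log2 fold changes -1.34 and -1.49). PME25 and PME47 are likewise each other's closest member, at 76.89% over 82.5%, and both were higher in shr-2 (0.46 and 1.22). In the other reciprocal pairs with both genes tested, PME7 with PME41, PME2 with PME3, PME32 with PME44 and PME8 with PME68, neither gene passed. In that order, the matches covered 82.6%, 88.8%, 40.9% and 10.3% of the transcript of the gene named first. PME8 and PME68 are thus alike over a short stretch only. Since the pairs that moved together were noticed after the values were seen, no test was made on them. The 250 bases before the annotated start of these 4 genes are shown, read from the TAIR10.1 genome on the strand of the gene, to set the start regions of genes that moved together side by side. Capitals mark TATAAA on either strand. The windows are chr2:17902120-17902369 (plus) for PME16, chr3:21805336-21805585 (minus) for PME35, chr3:3357755-3358004 (minus) for PME25 and chr5:1467162-1467411 (minus) for PME47.
PME16: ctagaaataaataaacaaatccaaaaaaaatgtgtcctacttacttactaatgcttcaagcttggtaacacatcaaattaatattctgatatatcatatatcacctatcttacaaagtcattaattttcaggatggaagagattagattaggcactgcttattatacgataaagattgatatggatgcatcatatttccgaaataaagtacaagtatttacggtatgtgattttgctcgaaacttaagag
PME35: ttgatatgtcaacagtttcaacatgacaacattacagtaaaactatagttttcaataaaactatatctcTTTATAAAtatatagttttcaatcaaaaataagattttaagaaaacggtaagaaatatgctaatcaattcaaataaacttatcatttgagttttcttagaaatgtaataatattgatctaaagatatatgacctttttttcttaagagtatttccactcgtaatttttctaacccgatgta
PME25: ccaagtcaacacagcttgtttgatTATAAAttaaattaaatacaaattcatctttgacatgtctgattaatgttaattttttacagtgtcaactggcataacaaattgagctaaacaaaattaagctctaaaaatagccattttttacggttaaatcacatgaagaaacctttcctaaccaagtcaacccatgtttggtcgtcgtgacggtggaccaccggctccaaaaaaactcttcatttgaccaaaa
PME47: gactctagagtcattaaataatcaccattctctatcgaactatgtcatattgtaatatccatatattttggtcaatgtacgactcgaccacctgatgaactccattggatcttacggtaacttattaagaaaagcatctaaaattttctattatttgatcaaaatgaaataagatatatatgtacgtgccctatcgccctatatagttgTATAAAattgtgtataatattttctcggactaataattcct

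TATAAA began 41 bases before the start of PME47 and 226 bases before that of PME25, and lay on both strands at 181 and 179 bases before that of PME35, while the window of PME16 held none. Over all 67 members TATAAA was in 53.7% of the windows, against 47.3% of the windows of all 27443 protein-coding genes. Other short motifs were searched on both strands, and none of them was in the 4 windows shown. TTTGTC, the core bound by the INDETERMINATE DOMAIN partners of SHR, was in 14.9% of the members' windows and 24.1% of all windows. The auxin response element TGTCTC, whose start can overlap the end of TTTGTC, was in 9.0% of the members' windows and 10.9% of all. The brassinosteroid response element, CGTGTG or CGTGCG, was in 9.0% and 6.7%, and the G-box CACGTG, which can overlap it, in 3.0% and 6.5%. Among the called members, PMEI6 held TTTGTC, PME53 and PME20 held TGTCTC, and PME20, PMEI9 and PMEI12 held a brassinosteroid element. Such matches describe these letters in these windows.

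Many members lie side by side in the genome. There were 16 pairs of neighbouring members, involving 31 of the 67 genes, but only 2 of the pairs had both genes tested. PME2 and PME1, 320 bases apart on chromosome 1, did not pass. Of PMEI10 and PMEI9, on the same strand of chromosome 1, only PMEI9 passed. In 9 pairs 1 gene was tested, and its neighbour had a mean under 1 FPKM, as the filter sets. The means of these neighbours went up to 0.944 FPKM, in PMEI4 beside PMEI7. At the low end, PME24, which ends 30 bases from PME25, was listed at 0, and PME13, which follows PME12, had a mean of 0.0525 FPKM. PME46, 12 bases from PME47, had a mean of 0.00775 FPKM.

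The naming rule misses related genes. Genes that the table describes as esterases or inhibitors of this kind without such a symbol numbered 59, of which 28 were listed at 0 in all 4 libraries and 13 were tested. Of these, 3 were higher in shr-2, where 13.9% of all genes were, and 5 were lower, where 13.7% were. The median log2 fold change was -0.11. AT1G70720, described as a member of the invertase and PME inhibitor superfamily and named after its values were seen, had 1.37 and 0.952 FPKM in shr-2 and 6.70 and 9.67 FPKM in Col-0 (log2 fold change -2.08, limma adjusted p = 0.00306). AT2G47050, of the same description and named likewise, had 1.67 and 2.25 FPKM in shr-2 and 0.340 and 0.215 FPKM in Col-0 (log2 fold change 1.21, limma adjusted p = 0.00768). Both superfamily genes separated by genotype, in opposite directions. The mean of AT2G47050 reached 1 FPKM only through its shr-2 libraries, so its separation follows in part from the filter. The invertase inhibitors C/VIF1 and C/VIF2, which share the fold of the PMEIs, also differed in direction. C/VIF1 had 50.3 and 45.5 FPKM in shr-2 and 35.2 and 34.9 FPKM in Col-0 (log2 fold change 0.44, limma adjusted p = 0.0267), and C/VIF2 had 54.0 and 61.4 FPKM in shr-2 and 88.4 and 102 FPKM in Col-0 (log2 fold change -0.71, limma adjusted p = 0.0132). Of this pair 1 call was left without shr-2 replicate 2 and 0 without any of the other libraries.

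Genes that make and methylate homogalacturonan, the substrate of PMEs, were counted in the same fit. Of 18 tested synthesis genes 1 was higher in shr-2, where 13.9% of all genes were, and 17 did not pass (median log2 fold change 0.03). The gene that passed was GAE6, a glucuronate epimerase that supplies galacturonic acid, with 244 and 290.2 FPKM in shr-2 and 169 and 175 FPKM in Col-0 (log2 fold change 0.63, limma adjusted p = 0.0191). This count was 0 without shr-2 replicate 2, Col-0 replicate 1 or Col-0 replicate 2, and 2 with quantile normalization or with the library medians set equal. The synthesis count was larger still with a replicate block, as was the count of all genes called, and both are given at the end. Of 3 genes for methyl transfer in the Golgi, CGR3 was higher, with 93.7 and 92.4 FPKM in shr-2 and 57.3 and 55.9 FPKM in Col-0 (log2 fold change 0.71, limma adjusted p = 0.00484). Of 8 genes of rhamnogalacturonan I synthesis, the branched pectin, RHM1, a rhamnose synthase, was higher, with 119 and 121 FPKM in shr-2 and 68.5 and 66.4 FPKM in Col-0 (log2 fold change 0.82, limma adjusted p = 0.00345). In each of these genes the 2 shr-2 libraries lay above the 2 Col-0 libraries.

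Genes that act on pectin in the wall went in both directions. Of 9 tested pectin acetylesterases, which remove acetyl groups, 3 were higher and 2 lower in shr-2 (median log2 fold change 0.19). Of all genes tested, 13.9% were higher and 13.7% lower. PAE11 had 203 and 224 FPKM in shr-2 and 83.7 and 93.8 FPKM in Col-0 (log2 fold change 1.26, limma adjusted p = 0.00228). PAE9 had 16.2 and 15.1 FPKM in shr-2 and 32.2 and 35.2 FPKM in Col-0 (log2 fold change -1.06, limma adjusted p = 0.00265), and PAE8 had 49.4 and 42.5 FPKM in shr-2 and 89.4 and 92.6 FPKM in Col-0 (log2 fold change -0.97, limma adjusted p = 0.00403). The genotypes were apart in all 3 genes, and the list held 3 calls whichever of the 4 libraries was left out. Of 4 tested genes of depolymerisation, the polygalacturonase PGX1, known to promote cell expansion, was lower, with 0.330 and 0.115 FPKM in shr-2 and 2.04 and 2.62 FPKM in Col-0 (log2 fold change -1.45, limma adjusted p = 0.00524). PGX1 met the filter on the mean only through Col-0, so its separation follows in part from the filter. The polygalacturonase inhibitor PGIP2 was higher, with 21.3 and 27.0 FPKM in shr-2 and 11.8 and 14.4 FPKM in Col-0 (log2 fold change 0.83, limma adjusted p = 0.0191). PGX1 and PGIP2 thus did not overlap between genotypes, and 1 of these calls was left without shr-2 replicate 2 or either Col-0 replicate. None of 4 subtilases, a group of proteases of which some process PMEs, passed, and the most abundant, SBT1.7, had 97.1 and 111 FPKM in shr-2 and 85.9 and 86.5 FPKM in Col-0.

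Of 7 tested genes of wall sensing, 4 were lower in shr-2, where 13.7% of all genes were, and 3 did not pass (median log2 fold change -0.47). RALF1, a signal peptide perceived by the receptor kinase FERONIA, had 27.4 and 23.0 FPKM in shr-2 and 65.6 and 60.4 FPKM in Col-0 (log2 fold change -1.29, limma adjusted p = 0.00259). The receptor kinase THE1, known to restrain hypocotyl growth when cellulose is deficient, had 56.0 and 53.8 FPKM in shr-2 and 94.1 and 87.6 FPKM in Col-0 (log2 fold change -0.71, limma adjusted p = 0.00583). Its relative HERK1 had 17.7 and 18.0 FPKM in shr-2 and 23.9 and 26.5 FPKM in Col-0 (log2 fold change -0.48, limma adjusted p = 0.0228). All 3 genes were below Col-0 in both shr-2 libraries, and the count of 4 was 2 without shr-2 replicate 1, 1 without Col-0 replicate 1 and 2 without Col-0 replicate 2.

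**Figure D4:**
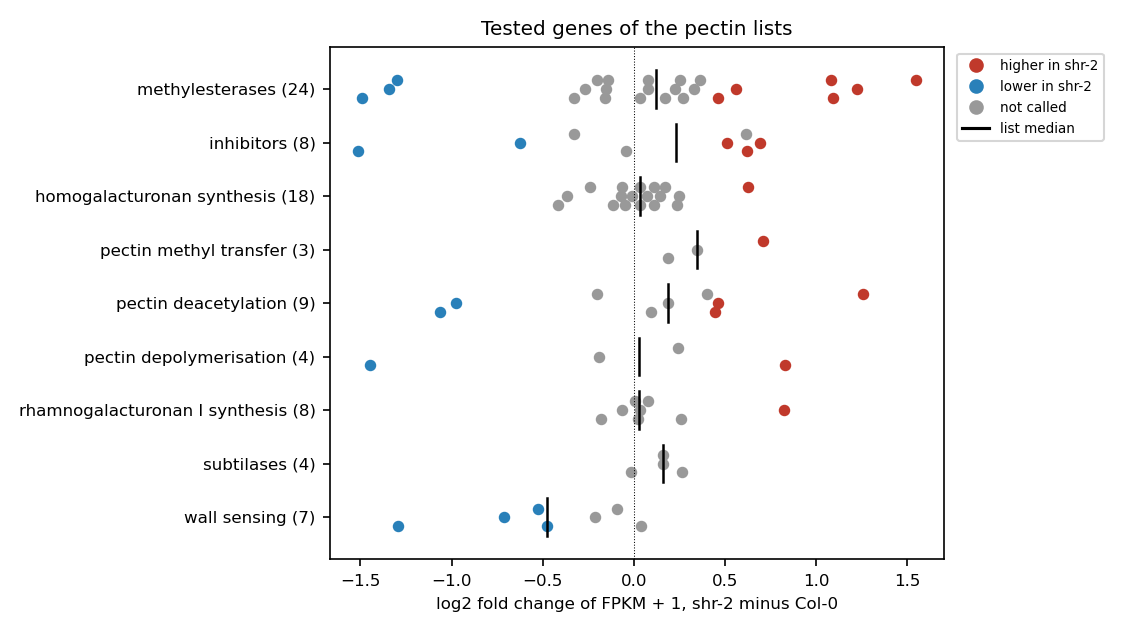
Log2 fold change of FPKM + 1, shr-2 minus Col-0, of each tested gene of the family and of the pectin and wall lists, with the number tested in brackets. Points are genes coloured by call, offset up and down only to keep them apart, and the bar is the list's median. The medians lie between 0.03 and 0.35 except that of wall sensing, at -0.47, and the related genes outside the naming rule are not drawn.

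Markers of other cell types were set beside these results. None of 4 epidermal markers passed, with summed levels of 365 to 568 FPKM in shr-2 and 361 to 524 FPKM in Col-0. Neither of 2 phloem markers passed, and 1 of 3 xylem markers was higher, with summed levels of 236 to 244 FPKM in shr-2 and 218 to 234 FPKM in Col-0. None of 3 guard cell markers passed, with summed levels of 45.0 to 57.7 FPKM in shr-2 and 44.7 to 47.9 FPKM in Col-0. Pollen and seed markers were at most 0.113 and 0.147 FPKM in any library, with the pollen genes VGD1 and VGDH1 at 0. Both of these pollen genes are members counted above, and the remaining pollen marker, PPME1, is described as a pectinesterase. The pollen list is thus not independent of the family. Of the shoot meristem markers, STM had 13.6 and 13.4 FPKM in shr-2 and 12.4 and 11.4 FPKM in Col-0. STM did not pass (limma adjusted p = 0.269), and WUS had at most 0.0324 FPKM. Whether the samples held shoot apex tissue was not tested. The xylem gene was CESA7, a cellulose synthase of the secondary wall. Apart from the endodermal list, then, no marker list held more than 1 gene that passed, where 27.6% of all genes tested passed. These lists are short. None of the root, pollen and seed markers was tested, 1 shoot meristem marker was, and the other lists had 2 to 4 tested genes each. Their counts therefore cannot be set against that of the endodermal list. The part of CESA7 in the results above was not tested.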

How the data were processed

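RNA from 2 shr-2 and 2 Col-0 libraries was analysed, grouped by their titles. Extraction used TRI reagent and the library kit was stranded, per the labels' protocols. The submitters' processing notes name TopHat2 2.0.13, Cuffdiff 2.2.0, CASAVA 1.8.2 and the TAIR10 genome, and gene models were Araport11, per the file headers. A strand setting for the counting is not given. The authors deposited FPKM per gene and library. The authors' deposited comparison table also holds mean FPKM, log2 fold changes, an unsigned fold (ratio), p-values, q-values and Cuffdiff's test statistic (a score). FPKM is relative to each library's total, so a change in RNA per cell is not seen, and depth is unknown.

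FPKM values were converted to log2(FPKM + 1), which understates changes of low genes. A mean of 1 FPKM was required (SHR was exempt), and 19920 genes entered limma 3.58.1 under R 4.3.3 (2-sided, eBayes with trend on the mean). Residual degrees of freedom were 2 and those of the prior 3.02. The series calls the libraries biological duplicates, and the labels do not say how they were grown apart, so p-values measure the spread between these samples only.

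All 32538 genes matched TAIR10.1 (RefSeq) by identifier. For 99.98% the annotated gene lay within the authors' locus, with equal bounds for 71.72%, and coordinates and sequences are those of TAIR10.1, counted from 1. Transcripts were compared with blastn 2.17.0, with a near-identical copy set at 90% identity over 50% of the length. Of the tested members, 2 had such a copy and 6 overlapped another gene.

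Members and lists were chosen with earlier results of these data known. Of 107 entries in 17 lists, 7 were left out because their symbol was not paired with an identifier. Values per library are given for called members with a log2 fold change of at least 1 in size, the 6 of highest mean, called members up to 12 in all by adjusted p, members of at least 1 FPKM in a library that the filter left out, and up to 3 called genes per list. Alternatives were pseudocounts of 0.1 and 0.5, no filter, a filter of 5 FPKM, quantile normalization, median centring, no trend, a replicate block, leaving out each library, and the authors' calls.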

Additional observations from a re-analysis of the deposited data

How the results depend on the processing

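The 14 called members kept their direction under every alternative run. With a filter at a mean of 5 FPKM, 23 members were tested, of which 8 were called and 2 of these were lower in shr-2, since the filter removed weakly expressed members. Leaving out each library in turn gave 5 to 10 called members, 3 to 5 higher and 2 to 5 lower in shr-2, and 2058 to 3843 called genes against 5503 in all. In these fits a genotype left with 1 library was assumed to vary like the other. Of the 14 members, 5 were called in all of these fits, and 3 (PME25, PMEI2 and PMEI9) in none. With no filter on the mean, 14 members were called as well, but PMEI6 and PMEI9 no longer passed and PMEI4 and PME15 did. The titles give both genotypes replicate numbers 1 and 2. Same-numbered libraries deviated together with a correlation of 0.305. The labels do not say whether they were grown or prepared together, and with only 2 pairs this was not tested. With the replicate block the calls came to 8729 of the 19920 genes tested and 19 of the 32 members. Of these members 12 were higher in shr-2 and 7 lower. In that fit 6 of 18 homogalacturonan synthesis genes were called, a smaller share than that of all genes. Without the block 1 of 18 was called, where 27.6% of all genes tested were. Both pseudocounts, quantile normalization, median centring and the fit without a trend also gave 14 called members. The share of all genes called is not given for these or the filter settings, so these counts show only how far the calls held. SHR was lower in shr-2 under every alternative run. With 2 libraries per genotype and no counts the precision is limited and no detection limit was measured, and a member that did not pass is not shown to be equal between genotypes.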
